A study of Mus musculus with 6 samples.

Results

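The 10 genes described here carry the insulin and insulin-like growth factor (IGF) signal from outside the cell to the FOXO transcription factors: the IGF binding proteins *Igfbp1*, *Igfbp3* and *Igfbp4*, the receptors *Insr* and *Igf1r*, the adaptors *Irs1* and *Irs2*, the kinase *Akt2* and the transcription factors *Foxo1* and *Foxo3*. They were chosen by symbol, through the Ensembl identifiers of the deposited table, and make up 10 of its 54532 genes. All 10 passed the filter on low counts. The RNA came from whole kidneys of male C57BL/6 mice on chow with doxycycline at 600 mg/kg for 4 days, which both groups received. Control mice carried KsprtTA alone, although the sample labels call their genotype wild type, and KSPAPN mice carried KsprtTA with a TRE-adiponectin transgene. The Ksp promoter drives the doxycycline-dependent activator rtTA in tubular epithelium, so that adiponectin is switched on in tubules and not in every kidney cell. Each group had 3 libraries, and each library was a pool of RNA from 3 mice, so that p-values measure the spread between pools and not between single animals. The labels give kidney as the tissue, but their note on extraction names liver; the values for proximal tubule and hepatocyte markers are given below. The mice's ages were not given in the sources at hand.

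The total count per library lay between 17183358 and 18205023 in Control and between 18150442 and 20871173 in KSPAPN. *Adipoq*, the gene of the transgene, was counted 2, 0 and 2 times in the Control libraries and 24629, 17483 and 26811 times in the KSPAPN libraries. The counts of the overexpressed gene thus followed the labels in every library.

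Insulin binds the insulin receptor and IGF1 binds the IGF1 receptor, and both receptors phosphorylate IRS adaptors, which recruit phosphoinositide 3-kinase and lead to the activation of AKT. AKT phosphorylates FOXO proteins, which then leave the nucleus, so that insulin turns down FOXO target genes such as those for gluconeogenic enzymes and for IGFBP1. In the kidney the proximal tubule makes glucose and is held back by insulin, and IRS2 is known as an adaptor that FOXO factors and fasting raise in several tissues.

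After 4 days of adiponectin overexpression none of the 10 genes differed between the groups at an adjusted p under 0.05 by edgeR. The members with the lowest p-values were both secreted binders of IGF, and both were lower in KSPAPN: *Igfbp1*, at 0.358 times the mean FPKM of Control, and *Igfbp4*, at 0.731 times. The adaptor *Irs1*, at 0.775 times, was the other member whose KSPAPN libraries all lay below all Control libraries. The receptors, *Akt2* and both FOXO genes had mean FPKM between 0.930 and 1.18 times those of Control, and *Irs2* varied so widely between pools that its groups were interleaved. Among known FOXO target genes, 4 of 27 passed the test, with *Pck1* and *Sesn3* higher and *Cited2* and *Klf15* lower in KSPAPN. Of all genes 0.393% were higher and 2.25% lower, the lists were not tested against each other, and each of these 4 calls was lost when Control replicate 1, Control replicate 2 or KSPAPN replicate 3 was left out. Those fits called 5, 9 and 5 of all genes higher and 34, 116 and 60 lower, against 63 and 361 with all libraries. The 4 genes kept their direction in all 15 alternative settings.

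**Figure D1:**
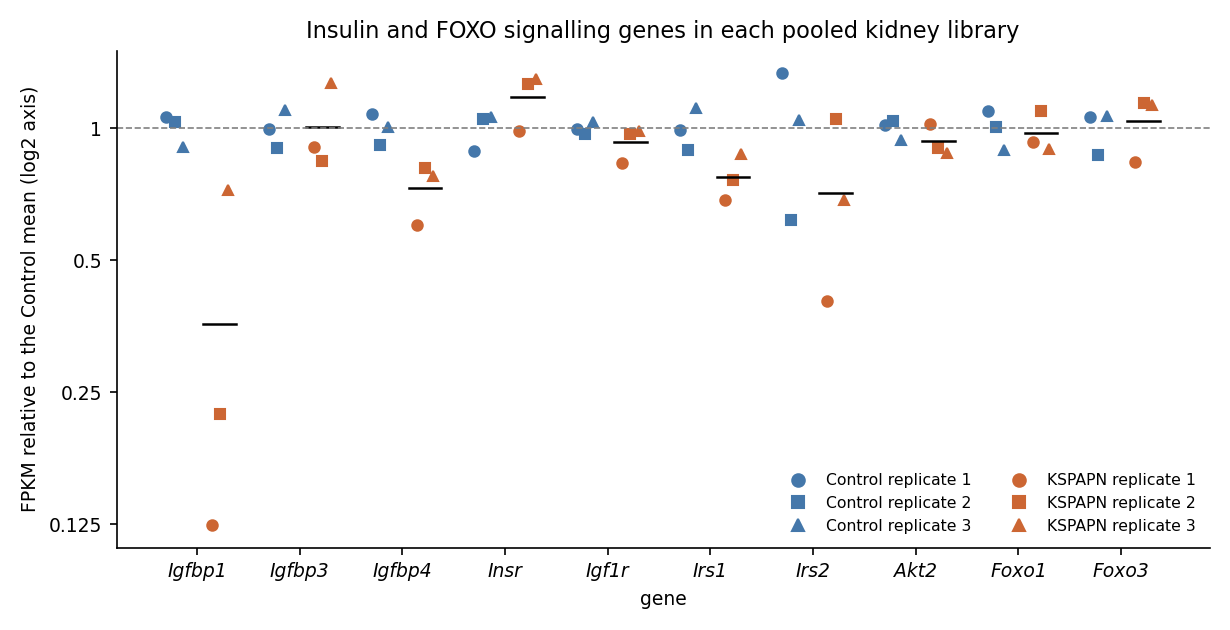
FPKM (fragments per kilobase of gene, with the deposited scaling between libraries) of each member in each library, divided by the mean of the 3 Control libraries of that gene, on a log2 axis. Points are libraries, horizontal bars are KSPAPN means and the dashed line is the Control mean. *Igfbp1* in KSPAPN spreads from 0.619 to 3.61 FPKM, below every Control library, while *Irs2* overlaps across the groups.

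The counts of members were read against those of all genes. By edgeR's quasi-likelihood test with Benjamini-Hochberg adjustment over all genes, 0 of 10 members passed in the higher and 0 in the lower direction at an adjusted p under 0.05, a threshold that 0.393% of the 16017 genes tested passed upwards and 2.25% downwards. At an unadjusted p under 0.05, 0 members were higher and 2 were lower (*Igfbp1* and *Igfbp4*), against 7.52% and 11.2% of all genes. DESeq2 called 0 members higher and 1 lower, *Igfbp4*, against 1.29% and 5.31% of the genes to which it gave an adjusted p. Groups that did not overlap were seen for 0 members in the higher direction and 3 in the lower direction, against 11.4% and 13.1% of all genes. With 10 members, 1 gene more or less moves each share widely, and no difference from these shares was tested. The median log2 fold change of the 10 members was -0.10 and that of all genes tested was 0.012. Among all genes, 14.9% of the calls by edgeR were in the higher direction, and this share was 26.7% with total counts only and 25.9% after correction for GC content and gene length. At an unadjusted p under 0.05 the share was 40.2%, and it turned to 62.7% with total counts only and to 51.2% after the correction.

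Per length, the members spanned a wide range of levels in Control kidney. *Igfbp4* was the highest, followed by *Igfbp3*, *Igf1r*, *Akt2*, *Foxo3*, *Insr*, *Irs2*, *Foxo1*, *Igfbp1* and *Irs1*. The FPKM ranges of neighbours in this order were apart from *Igfbp4* down to *Insr*. Those of *Insr* and *Irs2*, of *Irs2* and *Foxo1* and of *Foxo1* and *Igfbp1* overlapped, so that no order can be given between these neighbours, while *Insr* lay above both *Foxo1* and *Igfbp1*. *Irs1* lay below all others in Control, at 1.05 ± 0.115 FPKM (SD, n = 3).

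**Figure D2:**
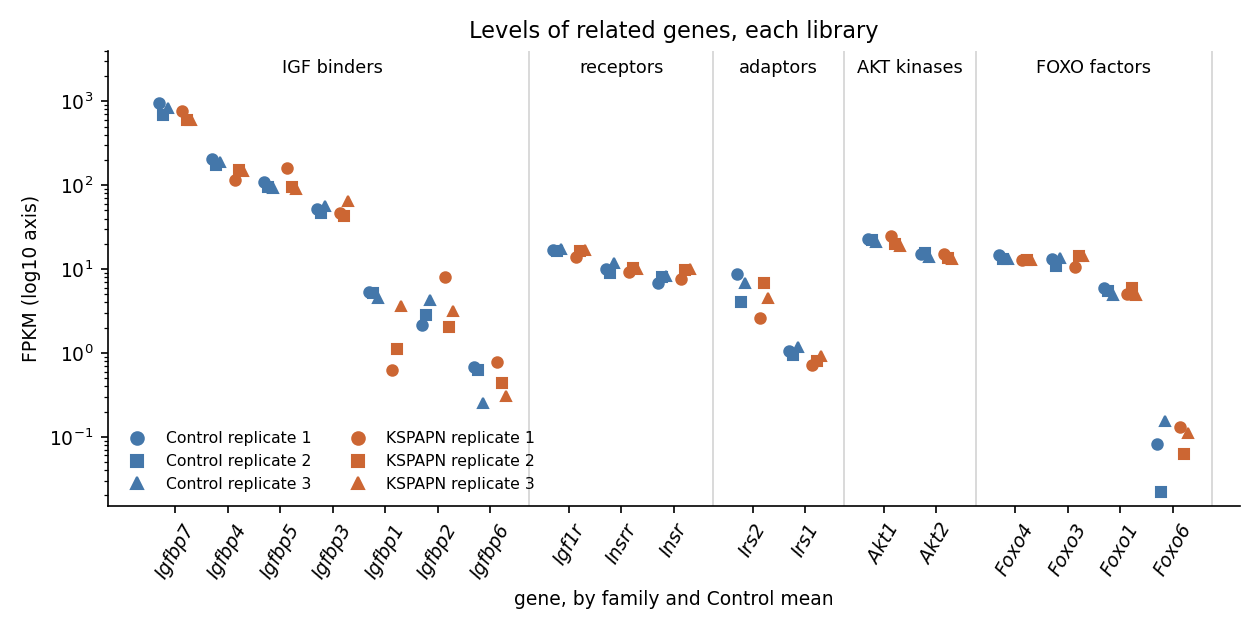
FPKM of the members and their nearest relatives in each library, on a log10 axis, grouped by family and ordered by the Control mean. *Igfbp7* leads the IGF binders, *Igf1r* the receptors, *Irs2* the adaptors, *Akt1* the AKT kinases and *Foxo4*, with *Foxo3* close to it, the FOXO factors.

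The IGF binders come first, as they meet the ligand outside the cell. IGFBP1 is a small secreted protein whose gene is among the best known targets of FOXO factors and of repression by insulin, and which the liver makes in fasting. *Igfbp1* (ENSMUSG00000020429) lies at chr11:7197782-7202546 on the + strand of GRCm38. It was counted 149, 136 and 121 times in the Control libraries and 22, 31 and 114 times in the KSPAPN libraries. In FPKM it stood at 5.27, 5.14 and 4.51 in Control and at 0.619, 1.11 and 3.61 in KSPAPN. The Control libraries were close together, 2 KSPAPN libraries were far below them, and the third KSPAPN library lay just under the lowest Control library, so that the groups did not overlap. The exact Poisson 95% interval of the count in KSPAPN replicate 3, 94.0 to 136.9, did not meet those of KSPAPN replicates 1 and 2, 13.8 to 33.3 and 21.1 to 44.0, so the KSPAPN pools differed from each other by more than counting error. For *Igfbp1* the log2 fold change was -1.48 (SE 0.48, 95% interval -2.55 to -0.41), with an unadjusted p of 0.0114 and an adjusted p of 0.135 by edgeR. It was called in 2 of 15 alternatives, over which the adjusted p ranged from 3.64e-07 to 0.360. Without KSPAPN replicate 3 the log2 fold change was -2.53 with an adjusted p of 0.0197 by edgeR, and the lowest adjusted p came from the fit without a filter on low counts, in which every gene was given the spread of the common trend and not its own.

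The region before the start of *Igfbp1* is shown because its response to insulin is known to run through letters of the kind CAAAACA, found in insulin response elements. The 250 bases before each start in RefSeq (GRCm38.p6) were searched on both strands for CAAAACA and for GTAAACA, a core motif of forkhead factors; both end in AAACA but cannot lie on the same bases of a strand. An entry was at hand for 9 members; *Insr* had none. CAAAACA was found in 3 of these 9 members, *Irs1*, *Irs2* and *Igfbp1*, and in 5.56% of the 32851 promoters of the table. GTAAACA was found in 0 of the 9 and in 3.17% of all promoters. Members were counted once each although they held 12 promoters, several of them of *Akt2*, while the shares of all are per promoter. The sequences below run 5′ to 3′ on the strand of the gene, with capitals for CAAAACA or its reverse complement TGTTTTG, and end at the last base before the start. They lie at chr11:7197537-7197786 (+) for *Igfbp1*, chr1:82291440-82291689 (-) for *Irs1*, chr8:11008930-11009179 (-) for *Irs2* and chr11:99040994-99041243 (+) for *Igfbp4*, the member with the smallest p, which holds neither motif.
Igfbp1: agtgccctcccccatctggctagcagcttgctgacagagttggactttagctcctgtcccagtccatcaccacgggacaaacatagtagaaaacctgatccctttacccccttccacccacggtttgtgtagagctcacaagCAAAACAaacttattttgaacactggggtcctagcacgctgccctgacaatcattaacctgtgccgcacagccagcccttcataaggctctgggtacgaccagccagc
Irs1: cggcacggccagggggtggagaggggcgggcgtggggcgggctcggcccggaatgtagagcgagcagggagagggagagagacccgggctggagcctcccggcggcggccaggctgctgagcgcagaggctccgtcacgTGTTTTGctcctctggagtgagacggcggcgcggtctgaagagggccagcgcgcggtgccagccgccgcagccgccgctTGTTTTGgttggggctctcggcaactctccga
Irs2: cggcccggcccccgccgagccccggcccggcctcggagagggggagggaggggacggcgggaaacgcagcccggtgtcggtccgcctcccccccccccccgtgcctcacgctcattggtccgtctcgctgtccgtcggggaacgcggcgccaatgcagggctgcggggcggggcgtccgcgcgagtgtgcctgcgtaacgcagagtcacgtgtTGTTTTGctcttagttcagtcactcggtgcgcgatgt
Igfbp4: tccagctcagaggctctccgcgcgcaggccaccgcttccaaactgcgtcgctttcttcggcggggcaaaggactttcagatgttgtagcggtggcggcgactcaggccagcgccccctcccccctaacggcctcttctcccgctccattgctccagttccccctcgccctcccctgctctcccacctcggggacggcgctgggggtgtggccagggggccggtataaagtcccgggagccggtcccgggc

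In *Igfbp1* the letters stand on the gene's own strand and begin 108 bases before the start. In *Irs1* they occur at 2 places and in *Irs2* at 1, all on the opposite strand. The GC content of these 250 bases was 53.2% in *Igfbp1*, 72.4% in *Irs1*, 72.8% in *Irs2* and 69.2% in *Igfbp4*. A match is a description of the letters only, and binding was not measured.

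*Igfbp3* (ENSMUSG00000020427), which encodes the main carrier of IGF1 in blood, is the neighbour of *Igfbp1*: it lies at chr11:7206086-7213923 on the - strand, and 3539 bases separate the ends of the genes. Its FPKM was 51.4, 46.4 and 56.6 in Control and 46.6, 43.3 and 65.3 in KSPAPN. The KSPAPN libraries included both the lowest and the highest of the 6 values, and the groups overlapped fully. For *Igfbp3* the log2 fold change was 0.01 (SE 0.15, 95% interval -0.32 to 0.34; adjusted p = 0.976 by edgeR). Its sign turned negative in 5 of 15 alternatives. A difference of the size of that in *Igfbp1* lay outside the interval of its neighbour.

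*Igfbp4* (ENSMUSG00000017493, chr11:99041244-99054392, + strand) encodes a binder that holds IGF away from its receptor until it is cleaved by the protease PAPP-A. It stood at 203.4, 173.0 and 189.9 FPKM in Control and at 113.8, 153.0 and 147.3 FPKM in KSPAPN. Every KSPAPN library was below every Control library, and KSPAPN replicate 1 was the lowest. The mean was 188.8 ± 15.2 FPKM (SD, n = 3) in Control and 138.0 ± 21.2 FPKM (SD, n = 3) in KSPAPN. Its log2 fold change was -0.45 (SE 0.12, 95% interval -0.72 to -0.17), with an unadjusted p of 0.00428 and an adjusted p of 0.0872 by edgeR. DESeq2 gave an adjusted p of 0.0104 for the same difference, and the adjusted p ranged from 0.00117, without the filter, to 0.310 over the 15 alternatives. Without KSPAPN replicate 1 the log2 fold change was -0.31 (adjusted p = 0.103 by edgeR).

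The other IGF binders place these values. In Control, *Igfbp7* made up 70.3% of the summed FPKM of *Igfbp1* to *Igfbp7*, *Igfbp4* 16.1%, *Igfbp5* 8.41% and *Igfbp3* 4.40%, and *Igfbp1* made up 0.428%. *Igfbp7*, whose protein binds IGF weakly and is abundant in vessels, stood at 960.7, 691.4 and 839.3 FPKM in Control and at 767.3, 591.7 and 603.7 FPKM in KSPAPN, and the groups overlapped (log2 fold change -0.34, unadjusted p = 0.0444, adjusted p = 0.253 by edgeR; log2 fold change -0.09 after the GC content and length correction). As a share of the summed FPKM of all 7 binders, *Igfbp1* was 0.396%, 0.507% and 0.380% in Control and 0.0564%, 0.125% and 0.395% in KSPAPN. On this scale KSPAPN replicate 3 lay inside the Control range. *Igfbp5*, chosen after its values were seen, stood apart in 1 library, with 161.4 FPKM in KSPAPN replicate 1 and 89.6 to 108.8 FPKM in the other 5 libraries.

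At the receptors, the groups were close. *Insr* (ENSMUSG00000005534, chr8:3122061-3279617, - strand) encodes the insulin receptor. It was counted 1750, 1940 and 1978 times in Control and 2443, 2458 and 2850 times in KSPAPN, and its FPKM was 6.87, 8.14 and 8.19 in Control and 7.63, 9.78 and 10.0045 in KSPAPN. Counts, and counts divided by the total of the library, were higher in every KSPAPN than in every Control library, but in FPKM and after TMM normalization KSPAPN replicate 1 lay among the Control libraries. *Insr* had a log2 fold change of 0.25 (SE 0.12, 95% interval -0.02 to 0.51; adjusted p = 0.299 by edgeR), which was 0.37 without KSPAPN replicate 1 and 0.15 after the GC content and length correction. *Igf1r* (ENSMUSG00000005533, chr7:67952827-68233668, + strand), the receptor for IGF1, stood at 16.8, 16.4 and 17.5 FPKM in Control and at 14.1, 16.4 and 16.6 FPKM in KSPAPN. The lowest value was that of KSPAPN replicate 1, and the other 5 libraries lay within a narrow band (log2 fold change -0.10, SE 0.09, 95% interval -0.31 to 0.11; adjusted p = 0.612 by edgeR), with -0.02 without KSPAPN replicate 1.

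Within each library the ratio of the receptors does not depend on library scaling. The log2 ratio of normalized counts of *Insr* to *Igf1r* was -1.58, -1.30 and -1.39 in Control and -1.17, -1.04 and -1.02 in KSPAPN. Every KSPAPN library had more *Insr* for its *Igf1r* than every Control library, by 0.34 in the mean. The 2-sided exact permutation test over the 20 arrangements of the libraries gave p = 0.1, the smallest p that 3 against 3 allows, and p = 0.5 after Benjamini-Hochberg adjustment over the 5 ratios compared. Per length, *Insr* was 22.2 ± 1.99% (SD, n = 3) of the summed FPKM of *Insr*, *Igf1r* and the related receptor *Insrr* in Control and 26.2 ± 1.38% (SD, n = 3) in KSPAPN. *Igf1r* led this family in every library. The widest mean difference of the 5 ratios was that of *Igfbp3* to *Igfbp4*, at -2.48, -2.39 and -2.24 in Control and -1.78, -2.32 and -1.67 in KSPAPN. Its groups overlapped, and the mean difference was 0.45 (exact permutation p = 0.2, 0.5 after adjustment).

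The adaptors differed in level and in spread. *Irs1* (ENSMUSG00000055980, chr1:82233101-82291416, - strand) was counted 177, 149 and 188 times in Control and 154, 134 and 174 times in KSPAPN. Its FPKM was 1.04, 0.940 and 1.17 in Control and 0.723, 0.802 and 0.918 in KSPAPN. All 3 KSPAPN libraries were below all 3 Control libraries, with a small gap between KSPAPN replicate 3 and Control replicate 2. For *Irs1* the log2 fold change was -0.36 (SE 0.17, 95% interval -0.74 to 0.02; unadjusted p = 0.0588, adjusted p = 0.288 by edgeR), and -0.18 with limma on log2(FPKM + 1).

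*Irs2* (ENSMUSG00000038894, chr8:10984681-11008458, - strand), an adaptor much used in liver, was the higher of the pair in every library and also the less stable. It was counted 1025, 445 and 761 times in Control and 389, 794 and 588 times in KSPAPN. In FPKM it stood at 8.75, 4.06 and 6.85 in Control and at 2.64, 6.87 and 4.49 in KSPAPN. The highest library was a Control and the lowest a KSPAPN library, but Control replicate 2 lay below 2 KSPAPN libraries. The spread within groups, as an SD of log2 CPM, was 0.622 for *Irs2* and 0.162 for *Irs1*. The median was 0.197 over all genes tested and 0.160 over the 12248 genes averaging 1 FPKM or more. For *Irs2* the log2 fold change was -0.49 (SE 0.32, 95% interval -1.21 to 0.22, adjusted p = 0.444 by edgeR), the widest interval but for that of *Igfbp1*. Leaving out 1 library moved it between -0.87 (KSPAPN replicate 2) and -0.19 (KSPAPN replicate 1). The log2 ratio of *Irs2* to *Irs1* in normalized counts was 2.04 ± 0.48 (SD, n = 3) in Control and 1.88 ± 0.62 (SD, n = 3) in KSPAPN, with an exact permutation p of 0.8.

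*Akt2* (ENSMUSG00000004056, chr7:27591552-27640826, + strand) encodes the AKT kinase most tied to insulin action on glucose. It stood at 15.1, 15.5 and 14.0 FPKM in Control and at 15.2, 13.4 and 13.1 FPKM in KSPAPN. KSPAPN replicate 1 was as high as Control, the other KSPAPN libraries were slightly lower, and the groups overlapped (log2 fold change -0.09, SE 0.10, 95% interval -0.30 to 0.12; adjusted p = 0.664 by edgeR). Per length, *Akt1* was higher than *Akt2* in every library. In normalized counts, which are not per length, *Akt2* was the higher, and its log2 ratio to *Akt1* differed by -0.03 between the groups (exact permutation p = 0.7).

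FOXO1 and FOXO3 are the transcription factors at the end of this branch, and AKT acts on the proteins and not on their mRNA, so that mRNA levels do not show their activity. *Foxo1* (ENSMUSG00000044167, chr3:52268336-52353221, + strand) stood at 5.96, 5.47 and 4.85 FPKM in Control and at 5.04, 5.95 and 4.87 FPKM in KSPAPN. *Foxo3* (ENSMUSG00000048756, chr10:42181841-42276755, - strand) stood at 13.3, 10.9 and 13.4 FPKM in Control and at 10.5, 14.4 and 14.2 FPKM in KSPAPN. Both genes had nearly the same range in both groups. The difference on the log2 scale was -0.03 (SE 0.11, 95% interval -0.28 to 0.21) for *Foxo1* and 0.06 (SE 0.13, 95% interval -0.23 to 0.35) for *Foxo3*, with adjusted p-values of 0.904 and 0.849 by edgeR, and both signs turned in some alternatives. Larger differences than these bounds lay outside the intervals. *Foxo4*, at 13.7 ± 0.964 FPKM (SD, n = 3) in Control, overlapped with *Foxo3*, and both were above *Foxo1* in every library, while *Foxo6* was at 0.0856 FPKM in Control and was not tested. The log2 ratio of *Foxo3* to *Foxo1* differed by 0.09 (exact permutation p = 0.7).

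**Figure D3:**
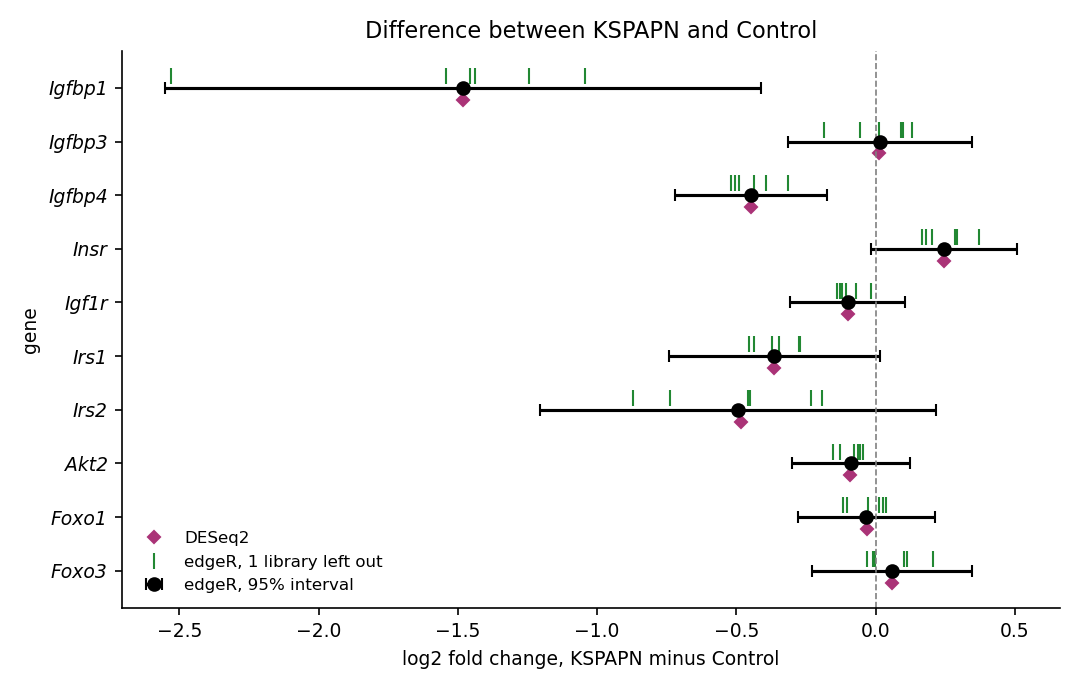
Log2 fold change (KSPAPN minus Control) of each member. Black points and bars are edgeR estimates with 95% intervals, diamonds are DESeq2 estimates, and ticks are edgeR estimates with each of the 6 libraries left out in turn. The interval excludes 0 for *Igfbp1* and *Igfbp4*, neither of which passed adjustment over all genes by edgeR, and the farthest tick of *Igfbp1*, at -2.53, is without KSPAPN replicate 3.

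Markers of nephron segments and other cells moved with some of these differences. In bulk kidney, fewer cells of a type and less RNA per cell cannot be told apart. The proximal tubule markers were lower in 7 of 8 genes (median log2 fold change -0.24), and 1 of them, the organic anion transporter *Slc22a6*, passed the test (log2 fold change -0.46, adjusted p = 0.0388 by edgeR). Their summed FPKM was 2388, 2091 and 2022 in Control and 1908, 1782 and 1890 in KSPAPN, led by the phosphate transporter *Slc34a1*. Without *Slc34a1* the other 7 summed to 1020, 946.1 and 898.3 FPKM in Control. In KSPAPN these 7 summed to 722.7, 802.0 and 799.4 FPKM, with replicate 1 the lowest. None of the 8 had a mean under 1 FPKM, and the KSPAPN sums lay below every Control sum, as *Igfbp1*, *Irs1* and *Igfbp4* did. The part of this in any of these genes was not tested.

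KSPAPN replicate 1 was the lowest library in FPKM for *Igfbp1*, *Igfbp4*, *Irs1*, *Irs2*, *Igf1r* and *Foxo3*. The deposited scaling factor of this library, relative to Control replicate 1, was 1.26, where total counts gave 1.15. Per total count, *Foxo3* in this library lay above Control replicate 2. KSPAPN replicate 1 was also the lowest for the summed proximal tubule markers without *Slc34a1*, at 722.7 FPKM. With *Slc34a1* the order differed: its sum, 1908 FPKM, was the highest in KSPAPN, where replicates 2 and 3 had 1782 and 1890 FPKM. KSPAPN replicate 1 also stood apart in some distal markers. The collecting duct markers, led by the water channel *Aqp2*, summed to 740.8 FPKM there and to 430.2 to 600.8 FPKM in the other 5 libraries. That was *Aqp2* alone, at 537.0 FPKM: the other 7 markers summed to 203.8 FPKM there, to 204.0 and 202.9 FPKM in the other KSPAPN libraries and to 244.8, 224.4 and 233.9 FPKM in Control. The distal convoluted tubule markers, led by the salt transporter *Slc12a3*, summed to 58.8 FPKM there, to 91.2 and 101.9 FPKM in the other KSPAPN libraries and to 107.0, 106.9 and 124.5 FPKM in Control, so that all 3 KSPAPN sums lay below every Control sum, which rested on *Slc12a3*, as the other 2 markers overlapped. Of 8 collecting duct markers 4 were higher and 4 lower, of 3 distal convoluted tubule markers 1 was higher and 2 lower, and 0 markers of either list passed the test by edgeR, with 0 higher and 4 lower (*Aqp3*, *Hsd11b2*, *Fxyd4* and *Slc4a1*) in the collecting duct and 0 higher and 1 lower (*Slc12a3*) in the distal convoluted tubule at an unadjusted p under 0.05, while DESeq2 called *Slc4a1* lower; these names, *Slc12a3* aside, were chosen after their values were seen. Of 5 thick ascending limb markers, led by *Umod*, 3 were higher and 2 lower, and the salt transporter *Slc12a1* passed the test (log2 fold change 0.52, adjusted p = 0.0437 by edgeR); their sums were 1007, 890.8 and 942.5 FPKM in Control and 1178, 901.3 and 949.8 FPKM in KSPAPN.

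*Igfbp1* is also a gene of hepatocytes, so their markers stand beside it. Of 6 hepatocyte markers 4 were lower and 2 higher in KSPAPN, and *Ttr* and *Serpina1a*, which encode plasma proteins, passed the test with log2 fold changes of -1.17 (adjusted p = 0.0388 by edgeR) and -2.81 (adjusted p = 0.0197 by edgeR). The list summed to 178.7, 172.5 and 90.3 FPKM in Control and to 62.7, 85.2 and 54.8 FPKM in KSPAPN, most of it *Ttr*. With *Ttr* included, KSPAPN replicate 3, where *Igfbp1* was nearest to Control, had the lowest sum. Without *Ttr* the other 5 markers summed to 50.6, 27.0 and 20.6 FPKM in Control and to 12.4, 21.8 and 16.5 FPKM in KSPAPN. The groups then overlapped, and the lowest sum was that of KSPAPN replicate 1, where *Igfbp1* was lowest. The albumin gene *Alb* stood at 2.05 ± 0.791 FPKM (SD, n = 3) in Control and 3.04 ± 2.40 FPKM (SD, n = 3) in KSPAPN. *Fgb* was at 0.136 FPKM in Control and 0.151 FPKM in KSPAPN. Both means were higher in KSPAPN, the opposite direction to *Ttr* and *Serpina1a*. *Alb* and *Fgb* were chosen after their values were seen. What hepatocyte transcripts contribute to *Igfbp1* was not tested. All 4 marker calls were lost without Control replicate 1 and without KSPAPN replicate 3, those of *Slc22a6*, *Slc12a1* and *Ttr* also without Control replicate 2, and those of *Slc22a6* and *Slc12a1* also without Control replicate 3 or KSPAPN replicate 2, with adjusted p-values of at most 0.193 over all alternatives. They were also lost with limma at either pseudocount, and those of *Slc22a6* and *Ttr* with total counts only (edgeR, adjusted p = 0.0521 and 0.0567). That of *Slc12a1* was lost after the GC content and length correction (edgeR, adjusted p = 0.0747), also with the replicate block added (0.0504). In the further lists 0 genes passed the test by edgeR or DESeq2. At an unadjusted p under 0.05 by edgeR 0 were lower. Higher at that threshold were 1 podocyte marker, 1 fibroblast and mural marker (*Dcn*, named after its values were seen) and 1 adipocyte marker (*Fabp4*). Podocyte markers were higher in 5 of 5 (led by *Podxl*), fibroblast and mural markers in 8 of 9 (led by *Acta2*) and endothelial markers in 5 of 8 (led by *Plvap*). Macrophage and lymphocyte markers were higher in 2 of 6 tested (led by *Csf1r*) and adipocyte markers in 2 of 3 tested (led by *Fabp4*, with *Lep* and *Plin1* at or near 0).

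**Figure D4:**
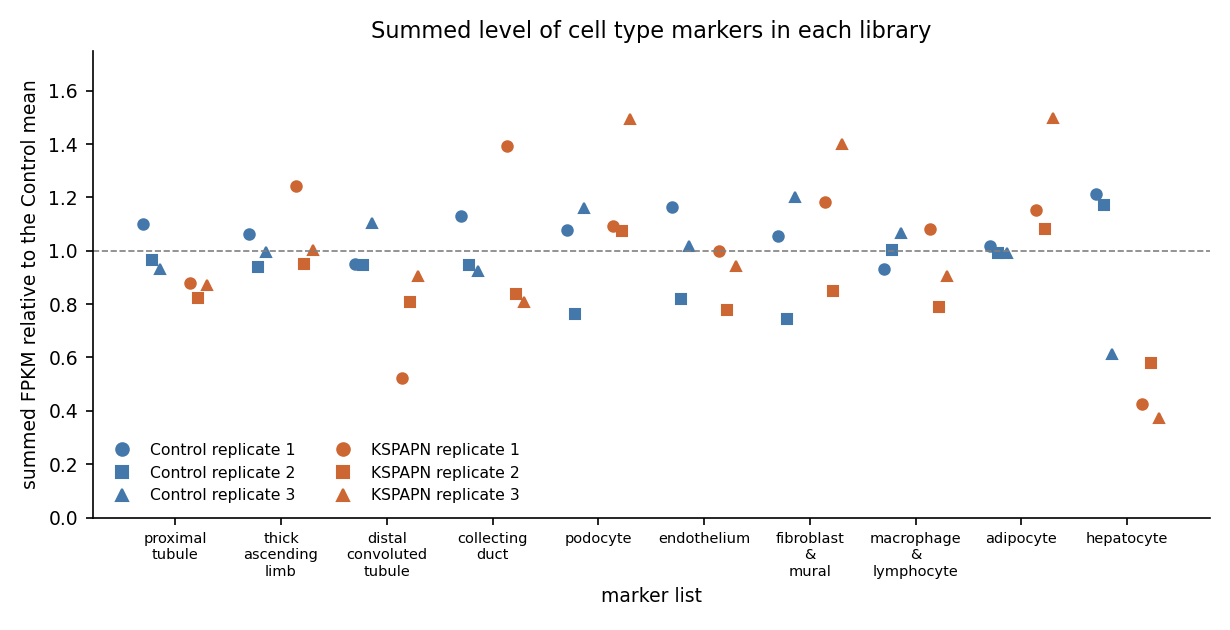
Summed FPKM of each list of cell type markers in each library, divided by the mean of the 3 Control libraries. Points are libraries and the dashed line is the Control mean. The proximal tubule, distal convoluted tubule and hepatocyte sums of all 3 KSPAPN libraries lie below those of all 3 Control libraries, the adipocyte sums lie above them, and KSPAPN replicate 1 stands apart for the collecting duct, through *Aqp2* alone, and for the distal convoluted tubule. Without the most abundant gene of each list, the groups are apart for the proximal tubule and the collecting duct (KSPAPN lower) and the thick ascending limb (KSPAPN higher), and overlap for the others.

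Other genes of the pathway were followed by role, over 71 genes of which 68 were tested. By edgeR 1 passed an adjusted p under 0.05 in the higher direction and 0 in the lower, with 10 higher and 6 lower at an unadjusted p under 0.05, and DESeq2 called 1 higher and 3 lower. Of all genes, 0.393% were higher and 2.25% lower at an adjusted p under 0.05 by edgeR, and 7.52% and 11.2% at an unadjusted p under 0.05. By DESeq2 the shares were 1.29% and 5.31%. These shares are the background for the counts of each role list and marker list, and no difference from them was tested. These 68 genes had a median log2 fold change of 0.07, beside 0.012 for all genes. *Igf2*, *Irs4* and *Foxo6* did not pass the filter on low counts.

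Among 13 tested ligands, receptors and binders, 0 passed the test by edgeR and 0 by DESeq2, with 0 higher and 2 lower at an unadjusted p under 0.05. *Htra1*, a protease that cleaves IGF binding proteins, stood at 50.2, 53.0 and 42.1 FPKM in Control and at 40.4, 41.5 and 35.6 FPKM in KSPAPN, with no overlap (log2 fold change -0.30, adjusted p = 0.169 by edgeR; log2 fold change -0.14 after the GC content and length correction). *Igfbp7*, given above, was the other. *Igf1* itself, chosen after its values were seen, was low, at 1.26 ± 0.0981 FPKM (SD, n = 3) in Control and 1.49 ± 0.172 FPKM (SD, n = 3) in KSPAPN.

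Among 19 tested adaptors, PI3K subunits and kinases up to AKT, 0 passed the test by edgeR, with 4 higher and 1 lower at an unadjusted p under 0.05, and DESeq2 called 1 lower. That gene was *Sgk2*, a kinase related to AKT and rich in proximal tubule. It stood at 42.7, 46.5 and 47.1 FPKM in Control and at 26.6, 37.2 and 33.4 FPKM in KSPAPN, so that the groups were well apart (log2 fold change -0.48, SE 0.12, adjusted p = 0.0602 by edgeR). *Sgk2* was called in 5 of 15 alternatives, among them DESeq2 and the fit without a filter. The others were the replicate block (adjusted p = 0.0203 by edgeR), this block with the GC content and length correction (0.0251), and the fit without KSPAPN replicate 2 (0.0479). The higher genes with the smallest p were the regulatory subunit *Pik3r3* (log2 fold change 0.41), the AKT-activating kinase *Pdpk1* (0.22) and *Sgk3* (0.32), with adjusted p-values of 0.149, 0.239 and 0.264 by edgeR; *Pdpk1* was at 0.13 and *Sgk3* at 0.20 after the GC content and length correction. The fourth was the adaptor *Grb2*, named after its values were seen (log2 fold change 0.23).

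Among 16 phosphatases and other inhibitors, 0 passed the test by edgeR, with 3 higher and 1 lower at an unadjusted p under 0.05, and DESeq2 called 1 lower. *Trib2*, a pseudokinase that can restrain FOXO factors, stood at 17.2, 13.8 and 14.6 FPKM in Control and at 6.34, 12.5 and 9.26 FPKM in KSPAPN. The groups did not overlap, and KSPAPN replicate 1 was again the lowest (log2 fold change -0.70, SE 0.20; adjusted p = 0.0923 by edgeR). *Inpp4b*, a lipid phosphatase, was higher in all 3 KSPAPN libraries but low in level, at 0.193 FPKM in Control and 0.335 FPKM in KSPAPN (log2 fold change 0.79, adjusted p = 0.0973 by edgeR; 0.16 on the log2(FPKM + 1) scale of limma). *Enpp1*, an inhibitor of the insulin receptor, and *Phlpp1*, a phosphatase of AKT, had log2 fold changes of 0.29 and 0.30 (adjusted p = 0.211 and 0.232 by edgeR), with 0.19 for *Enpp1* after the GC content and length correction and 0.20 for *Phlpp1* without KSPAPN replicate 1.

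Below AKT, 1 of 20 tested genes was higher and 0 were lower by edgeR, with 3 higher and 2 lower at an unadjusted p under 0.05, and DESeq2 called 1 higher and 1 lower. The gene that rose was *Pde3b*, the phosphodiesterase through which insulin lowers cyclic AMP in fat and liver cells. It stood at 1.34, 1.48 and 1.82 FPKM in Control and at 2.38, 2.41 and 2.82 FPKM in KSPAPN. All KSPAPN libraries were above all Control libraries (log2 fold change 0.72, SE 0.15; adjusted p = 0.0373 by edgeR; 0.48 on the log2(FPKM + 1) scale of limma). It was called in 8 of 15 alternatives, with adjusted p-values from 3.55e-04 to 0.171, and not without Control replicate 1 or 2 or KSPAPN replicate 2 or 3, after the GC content and length correction or with limma. *Mtor*, the kinase of the growth branch, stood at 27.9, 24.4 and 24.1 FPKM in Control and at 14.9, 20.7 and 20.5 FPKM in KSPAPN, a difference that DESeq2 called (adjusted p = 0.0239) and edgeR did not (log2 fold change -0.44, adjusted p = 0.0989; -0.29 without KSPAPN replicate 1). *Akt1s1*, an inhibitor of the same complex, had a log2 fold change of -0.41, *Rictor*, which directs mTOR to AKT, of 0.30, and *Gsk3b*, a kinase that AKT inhibits, of 0.21, with adjusted p-values of 0.180, 0.133 and 0.265 by edgeR. After the GC content and length correction these were -0.20, 0.15 and 0.11. *Akt1s1* was called without KSPAPN replicate 1 (log2 fold change -0.59, adjusted p = 0.0143 by edgeR) and without the filter, and its adjusted p ranged from 0.0108 to 0.450 over 15 alternatives.

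**Figure D5:**
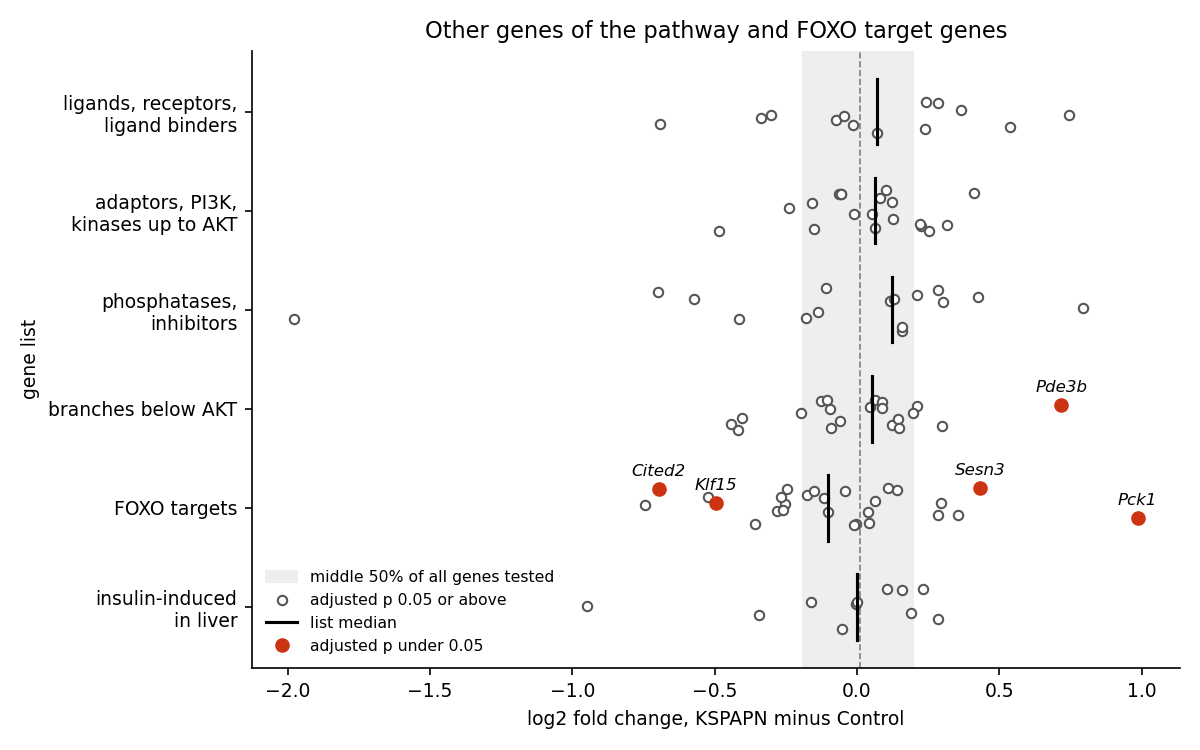
Log2 fold change (KSPAPN minus Control) of each tested gene of the 6 further lists. Filled points passed an adjusted p under 0.05 by edgeR, open points did not, black bars are list medians, the dashed line is the median of all genes tested and the grey band holds their middle 50%. The filled points are *Pde3b*, *Pck1*, *Sesn3*, *Cited2* and *Klf15*.

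Genes known as FOXO targets in other tissues moved in both directions. Of 27 tested, 2 passed an adjusted p under 0.05 in each direction by edgeR, 4 were higher and 6 lower at an unadjusted p under 0.05, and DESeq2 called 2 higher and 4 lower, the last 2 of them being *Trim63* and the catalase gene *Cat*, which was chosen after its values were seen. Of all genes, 0.393% were higher and 2.25% lower at an adjusted p under 0.05 by edgeR. The shares were 7.52% and 11.2% at an unadjusted p under 0.05, and 1.29% and 5.31% by DESeq2. This list was chosen with earlier results of these data known, and no difference from these shares was tested. The median log2 fold change of the 27 was -0.10. *Pck1*, which encodes the gluconeogenic enzyme phosphoenolpyruvate carboxykinase, stood at 852.9, 931.3 and 1366 FPKM in Control and at 2256, 1818 and 2137 FPKM in KSPAPN. The lowest KSPAPN library was well above the highest Control library (log2 fold change 0.99, SE 0.18; adjusted p = 0.0248 by edgeR). *Sesn3*, a stress protein that restrains the mTOR complex, stood at 3.83, 3.44 and 3.52 FPKM in Control and at 5.09, 4.84 and 4.57 FPKM in KSPAPN, again with no overlap (log2 fold change 0.43, SE 0.09; adjusted p = 0.0379 by edgeR).

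Among the FOXO targets that fell, *Cited2*, a transcriptional coregulator, went from 32.5, 29.9 and 26.3 FPKM in Control to 21.97, 16.5 and 15.9 FPKM in KSPAPN (log2 fold change -0.70, SE 0.14; adjusted p = 0.0298 by edgeR). *Klf15*, a transcription factor of fasting metabolism, went from 44.6, 41.6 and 44.9 FPKM to 29.0, 36.1 and 27.7 FPKM (log2 fold change -0.49, SE 0.11; adjusted p = 0.0425 by edgeR). The groups did not overlap for either gene. *Trim63*, a ubiquitin ligase of muscle wasting, was next by p among the lower targets (log2 fold change -0.74, adjusted p = 0.107 by edgeR), and *Mxi1*, a repressor related to MYC partners, among the higher ones (log2 fold change 0.28, adjusted p = 0.149 by edgeR). These 4 calls varied with the libraries and settings: *Pck1* was called in 10, *Sesn3* in 7, *Cited2* in 8 and *Klf15* in 5 of 15 alternatives, with highest adjusted p-values of 0.123, 0.124, 0.159 and 0.189, and all 4 were lost when Control replicate 1, Control replicate 2 or KSPAPN replicate 3 was left out. *Sesn3* was also lost without Control replicate 3 or KSPAPN replicate 2, *Cited2* without KSPAPN replicate 2, and *Klf15* without Control replicate 3 or KSPAPN replicate 1. With limma 0 of the 4 were called. The direction of each of the 4 held in all 15 alternatives. After the GC content and length correction *Sesn3* (adjusted p = 0.0993 by edgeR) and *Klf15* (0.116) were lost, *Klf15* also with the replicate block added (0.0672), and with total counts only *Cited2* (0.0816) and *Klf15* (0.0741). *G6pc*, which encodes the last enzyme of glucose production and was chosen after its values were seen, stood at 122.6, 162.2 and 155.8 FPKM in Control and at 64.1, 79.8 and 161.8 FPKM in KSPAPN (log2 fold change -0.52, adjusted p = 0.348 by edgeR). It was -1.02 without KSPAPN replicate 3, where it was called (adjusted p = 0.0364 by edgeR), and -0.26 without KSPAPN replicate 1; over 15 alternatives the adjusted p ranged from 7.22e-05, without the filter, to 0.593. Like *Igfbp1*, it was low in KSPAPN replicates 1 and 2 and near Control in KSPAPN replicate 3, whereas *Pck1* was higher in all 3 KSPAPN libraries.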

How the data were processed

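The authors deposited counts, whole numbers of reads per gene without normalization, and FPKM, scaled by gene length and by 1 factor per library. Relative to Control replicate 1 this factor was 1.26 in KSPAPN replicate 1 and 0.936 in Control replicate 2, where total counts gave 1.15 and 0.984 and total counts with TMM factors 1.23 and 0.935. The submitters' processing notes name STAR 2.5, TopHat, HTSeq 0.6.1, DESeq2 and edgeR with no role or order. The genome build, the annotation and the use of strand were not given in the sources used here. Of 54532 genes 54495 were matched by identifier to GENCODE M21 (GRCm38), and 37 were not.

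Counts were tested with edgeR 4.0.16 in R 4.3.3 (TMM, filterByExpr with minimum count 10 and minimum total 15, quasi-likelihood test, 2-sided, Benjamini-Hochberg over 16017 genes). Without stated strandedness, reads of overlapping antisense genes cannot be told apart; such genes overlap *Insr*, *Irs1*, *Irs2* and *Foxo1* and had at most 26 counts in a library. Reads carry no molecular identifiers, so Poisson intervals cover counting error only. Ratios used log2 CPM with a prior count of 0.5 and exact permutation tests. Scripts were tested on simulated data. Python 3.11.15, pandas 2.3.3, scipy 1.17.1 and matplotlib 3.10.9 handled tables and plots.

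Alternatives were DESeq2 1.42.0, RLE factors, total counts only, no filter, limma 3.58.1 on log2(FPKM + 1) and log2(FPKM + 0.1), a GC content and length correction (splines with 5 degrees of freedom on genes above a mean log2 CPM of 3), replicate number as a block, and each library left out. The members and lists were chosen with earlier results of these data known. Named in the text are all members, *Adipoq*, in each further list the genes at an adjusted p under 0.05 and in each direction up to 3 with the smallest unadjusted p under 0.05, and of each marker list its most abundant gene and those at an adjusted p under 0.05. Relatives of members were named for their level. Most genes of the lists are not reported here by name.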

Additional observations from a re-analysis of the deposited data

How the results depend on the processing

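Over 15 alternatives *Insr*, *Irs1*, *Irs2*, *Igf1r*, *Akt2*, *Igfbp1* and *Igfbp4* kept their direction, and none of these or of the other 3 members was called by edgeR with RLE factors, total counts only, the GC content and length correction or the replicate block, or by limma. DESeq2 called 1 member lower (*Igfbp4*, log2 fold change -0.45), 3 pathway genes lower, 4 FOXO targets lower, and 181 genes higher and 744 lower of all. Without the filter on low counts, 3 members were lower (*Igfbp1* -1.49, *Igfbp4* -0.45, *Irs2* -0.50), with 6 pathway genes lower, 5 FOXO targets lower, and 301 genes higher and 1038 lower among 29418 tested; that fit had infinite prior degrees of freedom, against 6.40 with the filter, so that the larger spread of *Igfbp1* and *Irs2* did not enter their standard errors. *Foxo1* reversed to 0.033 with total counts only, and *Igfbp3* to -0.011 with limma on log2(FPKM + 0.1), to -0.010 on log2(FPKM + 1) and to -0.0044 with the replicate block. limma called 0 pathway genes and 0 FOXO targets higher and 0 FOXO targets lower at either pseudocount, and of all genes 10 higher and 109 lower (pseudocount 0.1) or 10 and 118 (pseudocount 1). The GC content and length correction left 0 pathway genes and 1 FOXO target higher, with 97 genes higher of all. Total counts only left 0 FOXO targets lower and 195 genes lower of all. The cause of the other shifts was not tested. With 1 library left out, log2 fold changes ranged from -0.12 to 0.037 for *Foxo1*, from -0.030 to 0.20 for *Foxo3*, from -0.19 to 0.13 for *Igfbp3*, from -2.53 to -1.04 for *Igfbp1*, from -0.87 to -0.19 for *Irs2*, from -0.14 to -0.016 for *Igf1r*, from -0.15 to -0.05 for *Akt2* and from 0.16 to 0.37 for *Insr*. Members lower ranged from 0 to 1, pathway genes higher from 0 to 1 and lower from 0 to 2, FOXO targets higher from 0 to 2 and lower from 0 to 1, and all genes higher from 5 to 162 and lower from 34 to 571. Over all genes the most calls came without KSPAPN replicate 1 and the fewest without Control replicate 1, while the 1 member call came without KSPAPN replicate 3. The replicate block gave 1 pathway gene lower, *Sgk2*, and of all genes 224 higher and 705 lower. With the GC content and length correction the block gave 1 pathway gene lower, again *Sgk2*, and 198 genes higher of all. Correlations of deviations between libraries of the same number were 0.086, 0.275 and 0.199, so the numbers were not taken as pairs, although every library correlated best with its own number, narrowly in 1 case, which is a hint from the data. The 5 ratios moved by less than the larger of their group SDs with a prior count of 2 or with 1 library left out, but with 1 library left out the difference in *Irs2* to *Irs1* ranged from -0.50 to 0.12, in *Foxo3* to *Foxo1* from -0.04 to 0.21 and in *Akt2* to *Akt1* from -0.06 to 0.02, so that these signs turned. Pools of 3 mice and 3 libraries a group limit the precision. By a Poisson chi-square test chosen after the data were seen, the spread between pools exceeded counting error for 9 of 10 members (Bonferroni over the 10). The exception was *Irs1* (unadjusted p = 0.0761 by this test). The test sets separate pools against counting error only and depends on the depth of counts, so that no conclusion about the members was drawn from it.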

Other observations

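Genes known to rise with insulin in liver were followed as a mirror of the FOXO targets. Of 12, 11 passed the filter on low counts. By edgeR 0 of 11 passed the test in either direction, with 0 higher and 1 lower at an unadjusted p under 0.05, and DESeq2 called 1 lower. That gene was *Mlxipl*, the carbohydrate-responsive transcription factor ChREBP, at 49.9, 49.7 and 49.3 FPKM in Control and 35.7, 40.8 and 40.4 FPKM in KSPAPN. The Control libraries were nearly equal and all KSPAPN libraries lay below them (log2 fold change -0.34, SE 0.09, adjusted p = 0.0687 by edgeR, 0.0187 by DESeq2, and 0.0187 to 0.290 over 15 alternatives). *Mlxipl* was called in 3 of these alternatives: DESeq2, no filter and the replicate block (adjusted p = 0.0417 by edgeR). The list's median log2 fold change was 0.00069.

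The members differed in how far pools of one group were apart. The within-group SD of log2 CPM was 0.903 for *Igfbp1* and 0.622 for *Irs2*, and between 0.0916 and 0.247 for the other 8. Of the 10, 4 were above the median of all genes tested, 0.197. This count depended on the genes compared, as the median was 0.160 among the 12248 genes averaging 1 FPKM or more. *Insr* (0.176), *Igfbp4* (0.174) and *Irs1* (0.162) also lay above that lower median, while *Foxo1*, *Akt2* and *Igf1r* lay below it.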
